A study of Mus musculus with 4 samples.

Results

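The genes described are the kinesins, the microtubule motor genes whose symbol is Kif followed by a digit. Of 32285 genes counted in the deposited data, 40 have such a symbol, and the 31 of them with at least 10 unique molecular identifiers (UMIs, each standing for 1 captured mRNA molecule) over the 4 samples were kept as members. The members were then divided by their correlation with Cenpf, a kinetochore protein gene that dividing cells switch on before mitosis. Of the 31 members, 11 followed Cenpf from cell to cell in the tumor cells and 20 did not.

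Kinesins are motors that walk along microtubules or take them apart, powered by ATP. One set of them builds the mitotic spindle, moves chromosomes and completes cytokinesis, and its genes are switched on in G2 and mitosis and are nearly silent in resting cells. The other kinesins carry vesicles, mitochondria, endosomes or mRNA, move cargo in cilia, or set the length of microtubules, and many of them are made at all times. The spindle motors are known drug targets in cancer because dividing cells depend on them.

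The data are single-cell RNA-seq counts from tumors of DLA cells, a transplantable mouse lymphoma line, injected into the peritoneal cavity of Swiss albino mice. The control group is 2 samples that the labels call untreated (Control 1 and Control 2), and a supplement of the study calls vehicle controls, so whether the vehicle was given is not settled. The other group is 2 samples of mice given SP11, an inhibitor of the chaperone HSP90, orally at 30 mg/kg for 17 days (SP11 1 and SP11 2). All 4 samples carry the DLA tumor, the hosts have an immune system, and no age or sex of the mice is given. It is not said whether 1 sample is 1 mouse, so p-values speak for these samples only.

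The deposited tables hold 595 to 2277 barcodes and 9646197 to 13632163 UMIs per sample. After cells with fewer than 200 genes or over 10% mitochondrial UMIs were left out, tumor cells were taken as those with at least 5 UMIs of the keratin genes Krt8 and Krt18 together, which gave 845 and 528 tumor cells in the controls and 1256 and 582 after SP11. Keratins are epithelial and not lymphoid genes, and Krt8 and Krt18 are set in these cells by the gate. The gate took 92.2% and 93.3% of kept cells in the controls and 68.6% and 53.3% after SP11. The 4 other epithelial genes checked were split. Krt19 stood at 395 to 719 CPM (UMIs of a gene scaled to a total of 1000000 UMIs per sum) and Epcam at 194 to 227 CPM in the tumor sums. Cldn7 was at 0 in all 4 and Cdh1 stood at no more than 0.651 CPM. Whether the label lymphoma holds for these cells is not settled by these markers. Immune cells had at most 1 keratin UMI and at least 3 UMIs of a B, T and NK, myeloid or neutrophil marker list, and numbered 39 and 18 in the controls and 452 and 427 after SP11. Their sums hold 55201 and 41122 UMIs in the controls against 494548 and 731019 after SP11, so immune levels in the controls rest on very few molecules. Of 4353 distinct barcodes 896 occurred in more than 1 library, from 60 shared by the 2 controls to 359 shared by the 2 SP11 samples. Tumor cells with the same barcode in 2 libraries had a median profile correlation of 0.782 against 0.773 for different barcodes. The cause of the sharing, and whether it bears on comparisons between samples, was not tested.

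The 11 members that followed Cenpf were, in order of their correlation, Kif20b, Kif23, Kif22, Kif20a, Kif4, Kif2c, Kif11, Kif14, Kif18b, Kif18a and Kif15. Each is known from textbooks as a motor of the spindle or of cytokinesis. They are here called the Cenpf-linked kinesins. The rule was a mean Pearson correlation of at least 0.15 over the 4 samples, with r above 0 in each, between log(1 + UMIs per 10000) of the gene and of Cenpf over the tumor cells of a sample. Of 13941 genes with at least 10 UMIs in tumor cells 1.83% passed the same limit. Just inside the limit was Kif15 with a mean r of 0.196, and just outside it Kif13a, a vesicle motor, with 0.125. Of 13 Kif genes listed as mitotic from their textbook roles, 2 are not among the 11. Kif2b, a depolymerase, had 0 UMIs in the data, and Kif2a, a depolymerase also used outside mitosis, had a mean r of 0.071.

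The other 20 members were Kif5b, Kif1a, Kif1b, Kif1c, Kif3a, Kif3b, Kif3c, Kif13a, Kif13b, Kif16b, Kif17, Kif21a and Kif21b, which carry cargo or act on microtubule growth, the depolymerase Kif2a, the cilium and centriole kinesins Kif9, Kif19a and Kif24, the motors without ATPase activity Kif26a and Kif26b, and Kif1bp. Kif1bp is a protein that binds and regulates kinesins and not a motor, and it is a member only by the letters of its symbol. The 9 Kif symbols that fell below 10 UMIs included the conventional kinesin heavy chains Kif5a and Kif5c, both best known from neurons, and Kif28 with 9 UMIs. Just inside the limit were Kif1a with 10 UMIs and Kif19a with 13.

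The promoters of the linked kinesins are shown because genes of G2 and mitosis are known for a short element, the cell cycle genes homology region (CHR), that lies near the start of transcription. RefSeq promoter sequences of build GRCm38.p6 matched 25 of the 31 members, 10 linked genes among them. The 6-base CHR (TTTGAA on either strand) was found in the 300-base promoters of 9 of the 10 linked genes, and in 17.9% of 32851 promoters of all genes. Of 19 promoters of unlinked members 10.5% held it, those of Kif26b and of 1 of the promoters of Kif1a. Within 60 bases of the start it was found in 7 of 10 linked promoters, in 2 of 19 unlinked ones (10.5%) and in 5.66% of all promoters. Below, 120 bases before the start and the first 30 transcribed bases are given 5′ to 3′ on the gene's strand for 6 linked genes and for Kif21a, an unlinked member that differed strongly between cell types. Capitals mark the CHR and the CCAAT box (CCAAT or its reverse complement ATTGG).
Kif11 (chr19:37376262-37376411, plus strand): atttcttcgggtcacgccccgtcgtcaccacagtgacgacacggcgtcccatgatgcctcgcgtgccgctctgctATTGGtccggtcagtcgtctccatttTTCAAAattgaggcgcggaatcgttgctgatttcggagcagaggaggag
Kif15 (chr9:122950961-122951110, plus strand): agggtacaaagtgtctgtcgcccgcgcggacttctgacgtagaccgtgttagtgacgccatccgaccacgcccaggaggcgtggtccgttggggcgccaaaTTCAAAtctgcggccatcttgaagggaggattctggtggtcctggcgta
Kif22 (chr7:127042391-127042540, minus strand): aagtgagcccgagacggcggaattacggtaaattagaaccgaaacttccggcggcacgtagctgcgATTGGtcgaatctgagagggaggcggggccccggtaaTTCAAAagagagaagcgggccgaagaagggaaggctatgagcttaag
Kif20b (chr19:34922238-34922387, plus strand): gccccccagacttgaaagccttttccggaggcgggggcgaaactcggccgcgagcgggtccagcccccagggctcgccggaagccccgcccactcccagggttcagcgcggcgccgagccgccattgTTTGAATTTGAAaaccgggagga
Kif23 (chr9:61946770-61946919, minus strand): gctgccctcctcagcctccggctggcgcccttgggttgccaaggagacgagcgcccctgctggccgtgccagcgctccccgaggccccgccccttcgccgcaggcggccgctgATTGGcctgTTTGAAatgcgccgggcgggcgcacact
Kif4 (chrX:100625945-100626094, plus strand): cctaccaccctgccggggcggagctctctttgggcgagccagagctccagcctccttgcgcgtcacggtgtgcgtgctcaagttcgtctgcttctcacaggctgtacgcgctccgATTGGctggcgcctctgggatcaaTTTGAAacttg
Kif21a (chr15:91049922-91050071, minus strand): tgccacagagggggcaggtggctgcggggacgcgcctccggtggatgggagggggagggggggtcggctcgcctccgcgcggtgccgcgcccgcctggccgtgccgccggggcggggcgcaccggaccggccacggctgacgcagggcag

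Counted from the first transcribed base as 0, the CHR began at -19 in Kif11, -19 in Kif15 and -17 in Kif22, each time on the reverse strand. In Kif23 it began at 2 and in Kif4 at 19, both on the gene's own strand, and Kif20b had 2 copies end to end of which the first began at 7. Kif18b had it at 3, while in Kif2c and Kif14 it lay farther out at -103 and -228. Kif18a had no match in this window. The CCAAT box was found in 6 of the 10 linked promoters, in 6 of the 19 unlinked ones and in 37.4% of all. A match is a string of letters and is not shown to be bound.

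Kif20b, a cytokinesis motor, had the highest correlation with Cenpf, with r of 0.394, 0.521, 0.367 and 0.554 in Control 1, Control 2, SP11 1 and SP11 2. Kif23, the motor of centralspindlin at the spindle midzone, followed with 0.391, 0.428, 0.302 and 0.511 in the same order of samples. Kif15, a spindle motor that works beside Kif11, was lowest of the 11 with 0.198, 0.223, 0.138 and 0.226. SP11 2 gave the highest r for all 11 genes and the ranges of the 2 groups overlapped for 10 of them. In Kif14, a midbody motor, the values were 0.156 and 0.222 in the controls and 0.230 and 0.374 after SP11.

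**Figure D1:**
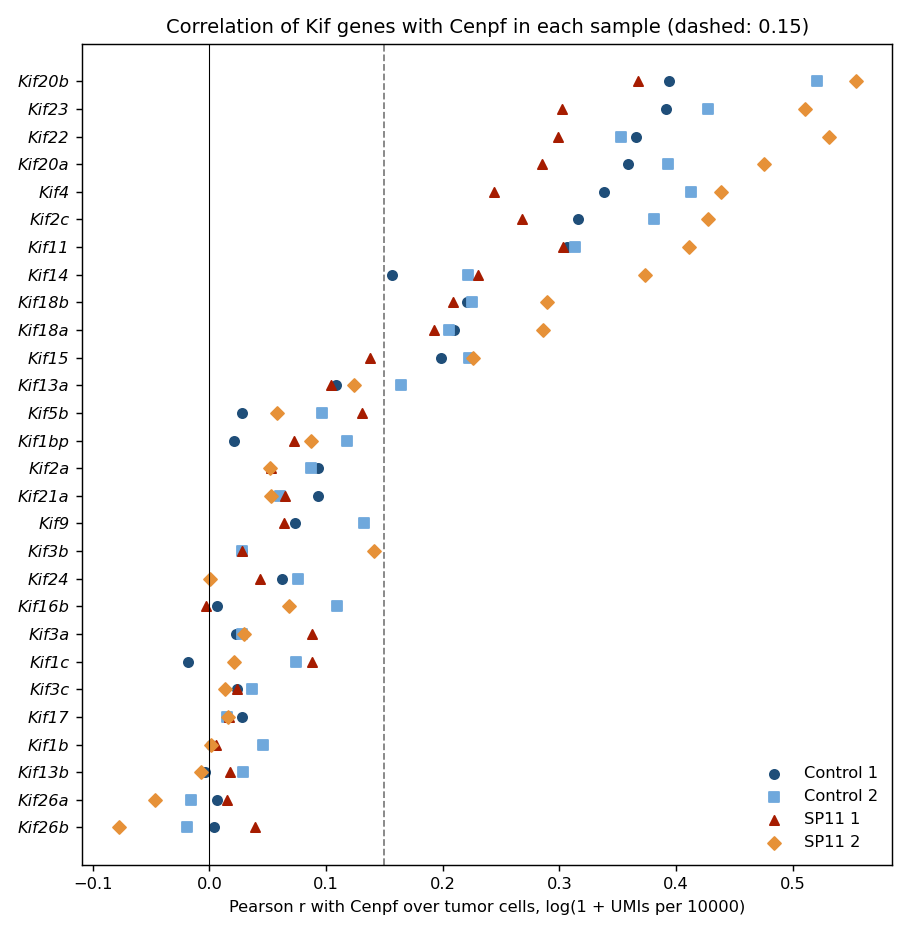
Pearson correlation of each kinesin gene with Cenpf over the tumor cells of each sample (x axis, no unit), for the 28 members with at least 10 UMIs in tumor cells (y axis, ordered by mean r). The 11 genes at the top lie past the dashed limit of 0.15 on average, from Kif20b at 0.459 to Kif15 at 0.196, and the means of the others lie below the limit, those of Kif26a and Kif26b just under 0.

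The size of r moved with sequencing depth. The median tumor cell had 10935, 17214, 8891.5 and 19843 UMIs in the 4 samples, and the sample with the deepest cells gave the highest r. When each tumor cell was thinned to 5000 UMIs, the 6 genes Kif20b (mean r 0.263), Kif20a (0.240), Kif22 (0.214), Kif23 (0.213), Kif11 (0.189) and Kif2c (0.163) still passed the limit, and Kif4, a chromokinesin of chromosome arms, stood just under it at 0.147. The remaining linked genes, Kif14, Kif18a, Kif18b and Kif15 among them, passed the limit at full depth only. No unlinked member passed it after thinning. At equal depth SP11 2 still gave the highest r for Kif20b, Kif23, Kif11, Kif14, Kif18b and Kif15. For Kif20b the thinned values were 0.251, 0.263, 0.245 and 0.294 in Control 1, Control 2, SP11 1 and SP11 2. For Kif22, Kif20a, Kif4, Kif2c and Kif18a another sample was highest.

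Within the linked kinesins the relation to S phase was uneven. Against the sum of a list of 14 genes of DNA replication and S phase, the mean r over the 4 samples was 0.205 for Kif15, 0.179 for Kif11, the Eg5 motor that pushes the spindle poles apart, 0.106 for Kif4 and 0.100 for Kif18b. For Kif20a and Kif22 it was -0.050 and -0.044, although both had a higher r with Cenpf than Kif15 had. These are correlations over cells that share a library and a depth, and they are given as descriptions.

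The genes with profiles most like the sum of the 11 linked kinesins were Cenpf itself (mean r 0.613), then Prc1 (0.594), the midzone bundler that Kif4 is known to bind, Hmgb2 (0.552), Top2a (0.539), Tpx2 (0.538), Ube2c (0.528), Birc5 (0.521), Hmmr (0.518), Cdca8 (0.505) and Cenpe (0.497). Cenpe is itself a kinesin motor of the kinetochore whose symbol does not start with Kif. Each of these means is over 4 samples. The 11 genes were chosen by their correlation with Cenpf over the same cells, so the place of Cenpf and of genes that follow it is set by that choice.

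The same division is seen in levels when the tumor cells of each sample are ordered by Cenpf. In the third of cells with the highest Cenpf (Cenpf-high cells), Kif20b stood at 72.3, 81.0, 68.4 and 87.4 CPM, and in the third with the lowest (Cenpf-low cells) at 15.2, 16.9, 17.1 and 14.5 CPM. Kif14 had the widest ratio of the means, 7.90, with 8.36, 12.6, 15.3 and 17.3 CPM in the Cenpf-high cells and 1.48, 2.26, 1.90 and 1.14 CPM in the Cenpf-low cells. Kif15 had the narrowest ratio of the linked genes, 2.12. These ratios rest on the gene that sorted the cells and on the same cells as r, so they are a description with no test.

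The unlinked members had ratios of 0.745 (Kif26b) to 1.47 (Kif13a) where both kinds of cell had more than 3 UMIs. Kif13a was higher in the Cenpf-high cells of all 4 samples, with 27.5, 32.6, 31.7 and 42.7 CPM against 21.2, 20.3, 21.2 and 29.1 CPM, and Kif1bp had a ratio of 1.34. Kif5b, the ubiquitous conventional kinesin that hauls vesicles and organelles, stood at 151, 157, 162 and 163 CPM in the Cenpf-high cells and at 148, 147, 136 and 149 CPM in the Cenpf-low cells. Kif21a, a regulator of microtubule growth, stood at 82.2, 76.1, 83.9 and 85.6 CPM against 74.6, 75.2, 80.5 and 77.5 CPM. Summed over the 11 linked genes, the Cenpf-high cells held 486, 479, 460 and 552 CPM and the Cenpf-low cells 120, 141, 143 and 110 CPM, with no overlap between the kinds of cell in any sample. Summed over the 20 unlinked genes, the Cenpf-high cells held 482, 506, 532 and 559 CPM and the Cenpf-low cells 443, 451, 461 and 513 CPM.

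**Figure D2:**
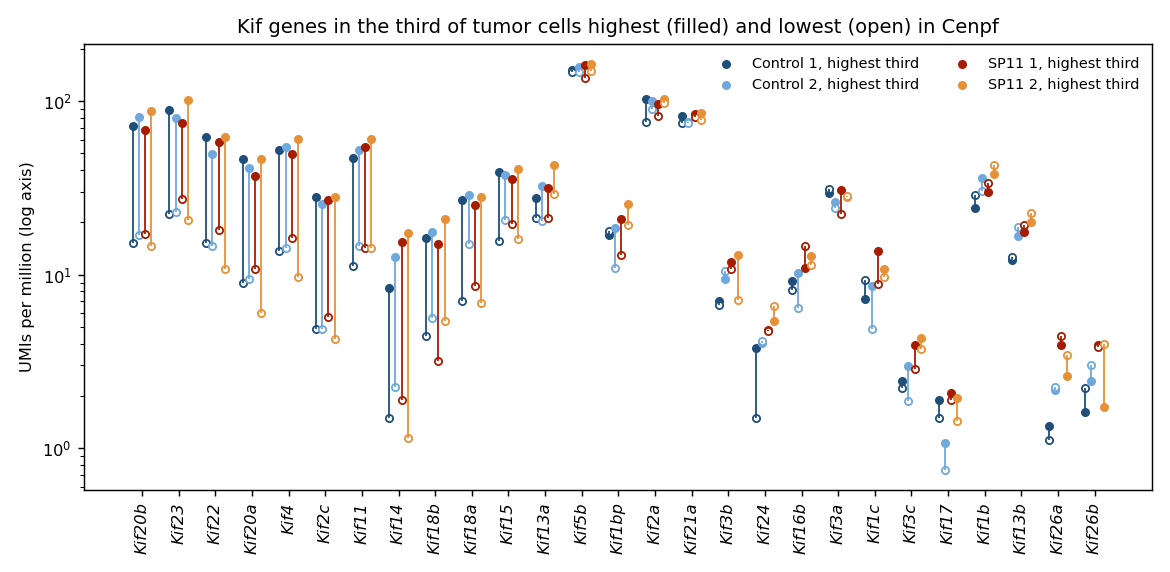
CPM (y axis, log scale) of each kinesin gene with more than 3 UMIs in the Cenpf-low cells (x axis, ordered by r with Cenpf) in the Cenpf-high (filled) and Cenpf-low (open) tumor cells, 1 line per sample. The lines are long for the 11 genes at the left, where the ratio of the means runs from 2.12 to 7.90, and short for nearly all others.

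All 4 tumor samples held kinesin mRNA of both kinds. The linked genes together stood at 295, 308, 299 and 337 CPM and the unlinked at 464, 473, 493 and 537 CPM, from 35057 kinesin UMIs in tumor cells. Reads were taken at the 3′ end and are not divided by transcript length, so the order of levels between genes is that of UMIs only. Among linked genes Kif23 had the highest mean (54.4 CPM) and Kif14 the lowest (7.70 CPM). Among unlinked genes Kif5b (151 CPM), Kif2a (93.7 CPM) and Kif21a (80.3 CPM) were highest, and Kif21b, Kif19a and Kif1a were nearly absent from tumor cells with 6, 3 and 4 UMIs.

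The comparison of tumor with immune cells asks which kinesins are particular to the tumor cells. In an edgeR quasi-likelihood fit of tumor and immune sums with the sample as a block, 24 members passed the filter on low counts. Of these, 15 were higher in tumor cells at an adjusted p under 0.05, all 11 linked genes among them, and 0 were lower. In this fit the spread was estimated over all genes together and not gene by gene. Its p-values, SEs and intervals therefore do not measure how well the samples agree on a single gene. Of all 10565 genes tested, 36.2% were higher and 20.4% lower, and the median log2 fold change of all genes was 0.48, so values near that are not particular to kinesins. The filter bears on the split of 15 to 0. It asks for a minimum level in at least 4 sums, and each of the 15 was at 0 CPM in at least 1 immune sum. So all 15 passed it only with their tumor sums, the class in which they are high. Kif4, Kif14, Kif18b and Kif2c had only 1 or 2 immune UMIs each. Kif21b, Kif1a, Kif9 and Kif19a, which had more UMIs per total in immune cells, did not pass it. These 4 were lower in tumor cells in a fit without the filter. The linked genes had a median log2 fold change of 3.09 and the 13 tested unlinked members one of 0.46. Linkage was itself set by expression in tumor cells, so the gap between these medians is a description with no test. At an unadjusted p under 0.05, 1 member, Kif1b, was lower in tumor cells (log2 fold change -0.63, adjusted p 0.065 in edgeR).

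Kif11 stood at 30.2, 35.6, 33.3 and 39.5 CPM in tumor cells and at 0, 0, 6.07 and 4.10 CPM in immune cells, so every tumor sample lay above every immune sample. Its log2 fold change was 3.09 ± 0.52 (SE, adjusted p 1.7e-08 in edgeR). Kif23 stood at 54.6, 50.7, 51.0 and 61.01 CPM against 0, 0, 16.2 and 4.10 CPM, a log2 fold change of 2.84 ± 0.44 (edgeR adjusted p 5e-10). Kif20b, with 40.8, 46.2, 41.8 and 50.8 CPM against 0, 0, 16.2 and 4.10 CPM, differed by 2.56 ± 0.44 (edgeR adjusted p 4e-08). Kif20a, a further cytokinesis motor, overlapped in no sample either, although its immune value in Control 1 (18.1 CPM) rests on a single molecule, and its log2 fold change was 3.11 ± 0.60.

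Kif4 had the widest fold, with 33.0, 33.7, 35.2 and 36.4 CPM in tumor cells against 0, 0, 2.02 and 0 CPM in immune cells. That is 1511 tumor UMIs against 1 immune UMI, so the pooled ratio of 45.9 has an exact 95% counting interval of 8.22 to 1813, which covers counting error only. Kif2c, the centromere depolymerase MCAK, had 657 UMIs against 2 and a pooled ratio of 9.97 (2.75 to 82.5). Kif18b, which shortens astral microtubules, had 474 against 1 and a ratio of 14.4 (2.57 to 570). Kif14 had 340 against 1 and a ratio of 10.3 (1.84 to 409). The single immune molecule of Kif14 fell in the small immune sum of Control 1 and gave 18.1 CPM there, above all tumor values of 4.98 to 8.82 CPM, so its call rests on the other samples. For these 4 genes the size of the difference is poorly fixed by so few immune molecules.

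Kif22, a chromokinesin, and Kif18a, which shortens kinetochore microtubules, had the smallest differences of the linked genes, with log2 fold changes of 1.41 ± 0.40 and 1.46 ± 0.51. Kif22 stood at 34.5, 32.0, 35.2 and 35.0 CPM in tumor cells and at 54.3, 0, 10.1 and 13.7 CPM in immune cells, so the immune value of Control 1, from 3 UMIs, lay above all tumor values. Without SP11 replicate 2 the calls of Kif14, Kif18a, Kif22, Kif3a and Kif1bp were lost, without SP11 replicate 1 those of Kif18a and Kif22 and without Control replicate 2 that of Kif18a. DESeq2 called 0 members lower and 10 of the 15 higher, also without Kif14, Kif18a, Kif22, Kif3a and Kif1bp. With tumor cells of at least 5 immune-list UMIs left out, Kif18a, Kif18b and Kif22 were no longer called. Kif22 then had a log2 fold change of 0.71 and Kif18a one of 0.86. This setting removed 226 and 270 control tumor cells (from 845 and 528) and 550 and 453 SP11 tumor cells (from 1256 and 582). The myeloid list holds Cst3, which stood at 244, 234, 310 and 257 CPM in the 4 tumor sums. Whether the removed cells were mixed with immune cells or merely deeper was not tested. The call of Kif3a was also lost with at least 500 genes per cell, that of Kif1bp with a stricter immune gate, and those of Kif14 and Kif3a against myeloid cells alone.

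Immune cells were not free of linked kinesin mRNA. In B cells, which were met only in the SP11 samples, the 11 genes summed to 131 CPM from 20 UMIs in SP11 1 and 41.7 CPM from 11 UMIs in SP11 2, and in myeloid cells to 61.2, 0, 32.4 and 46.0 CPM from 3, 0, 10 and 15 UMIs. Krt19, an epithelial keratin, stood at 43.8 to 54.3 CPM in the same immune sums, and Epcam at 10.9 to 48.6 CPM, against 395 to 719 CPM and 194 to 227 CPM in tumor cells. Whether mRNA of tumor cells has a part in the linked kinesin values of immune cells was not tested. The 4 hemoglobin genes Hba-a1, Hba-a2, Hbb-bs and Hbb-bt summed to 344, 49050, 89210 and 87550 CPM in the immune sums, and their part in the immune values was not tested.

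Of the 13 unlinked members tested, 4 were higher in tumor cells, a share below the 36.2% of all genes. Kif21a stood out with 78.2, 75.5, 82.8 and 84.6 CPM in tumor cells against 0, 0, 6.07 and 4.10 CPM in immune cells, a log2 fold change of 4.28 ± 0.48 (edgeR adjusted p 2.8e-18), from 3514 tumor and 6 immune UMIs. It was therefore among the members that differed most between the cell types while its correlation with Cenpf was only 0.052 to 0.093. Kif2a was higher by 1.18 ± 0.29, Kif3a, a subunit of the kinesin-2 motor of cilia, by 1.36 ± 0.42 and Kif1bp by 1.53 ± 0.50 on the log2 scale.

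Kif21b, the paralog of Kif21a known from immune cells and neurons, had the opposite pattern. It stood at 0, 0, 0.326 and 0.165 CPM in tumor cells and at 0, 0, 24.3 and 41.0 CPM in immune cells, or 6 tumor against 42 immune UMIs. It did not pass the filter on low counts, and in a fit without that filter its log2 fold change was -6.70 ± 0.68 (edgeR adjusted p 1.6e-21). Of the 42 UMIs 21 were in B cells, 6 in T and NK cells, 11 in myeloid cells and 4 in neutrophils. No immune molecule was seen in the controls, whose immune sums hold 55201 and 41122 UMIs. Without the filter the rare members Kif1a, Kif9 and Kif19a were also lower in tumor cells, from 4, 20 and 3 tumor UMIs and 5, 7 and 9 immune UMIs, and 8 of the 9 immune UMIs of Kif19a were in myeloid cells.

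Of the tested transport motors, Kif5b, Kif1b, Kif1c, Kif13a, Kif13b, Kif16b and Kif3b were not called in either direction. Kif5b stood at 151, 149, 146 and 156 CPM in tumor cells and 109, 48.6, 142 and 130 CPM in immune cells, and its log2 fold change of 0.46 ± 0.23 lay close to the median of all genes. Kif1b, a motor of mitochondria and vesicles, stood at 26.8, 33.0, 31.8 and 38.1 CPM against 90.6, 24.3, 40.4 and 72.5 CPM, so the cell types overlapped. Kif13b, a vesicle motor, and Kif3b, the partner subunit of Kif3a, had log2 fold changes of -0.61 ± 0.35 and -0.76 ± 0.41 with adjusted p of 0.127 and 0.104 in edgeR. Kif1b, Kif3b and Kif13b were all 3 called lower without Control replicate 2, in the SP11 samples alone, with up to 20% mitochondrial UMIs, and with tumor cells of at least 5 immune-list UMIs left out. Kif13a, at 23.0, 25.4, 28.3 and 35.2 CPM in tumor cells and 18.1, 24.3, 18.2 and 21.9 CPM in immune cells, differed by 0.71 ± 0.37 (edgeR adjusted p 0.094).

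**Figure D3:**
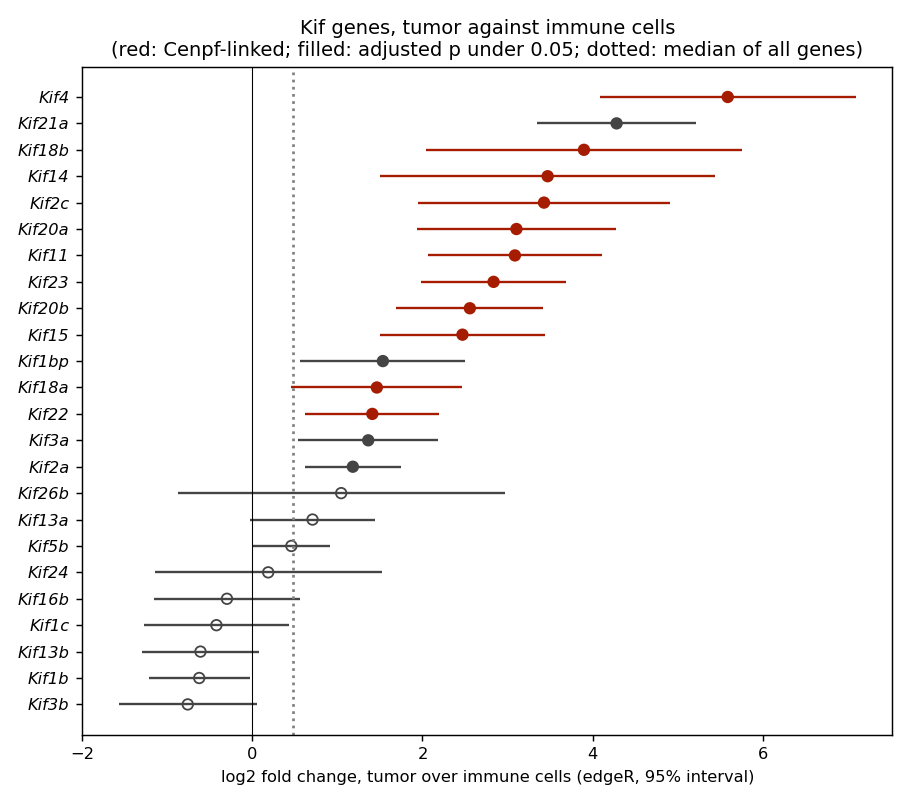
Log2 fold change of tumor over immune cells (x axis) for the 24 kinesin genes tested, with 95% intervals from edgeR. The 11 linked genes (red) and Kif21a, Kif1bp, Kif3a and Kif2a are called higher (filled), and the dotted line marks the median of all genes, 0.48.

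The partners of the motors were examined from lists drawn up with earlier results known. All 3 tested motors with a kinesin domain but another symbol were higher in tumor cells, Cenpe by 4.28 ± 0.51 on the log2 scale and Kifc1, a minus-end spindle motor, by 2.27 ± 0.73, both by edgeR. Of 27 spindle and cytokinesis partners 26 were higher and 0 lower (median 2.91), of 12 G2/M regulators 11 and 0 (median 3.39), and of 14 S phase genes 14 and 0 (median 2.20). Of all genes 36.2% were higher. These genes met the same filter on low counts and could pass it with their tumor sums alone. How many did so was not counted. Kinesin light chains and cargo adaptors had 2 higher and 3 lower of 14 tested (median -0.28). For this list the share higher lies below the 36.2% of all genes and the share lower near their 20.4%. The 2 higher genes were the light chains Klc2 and Klc3, which couple kinesin-1 to cargo, with log2 fold changes of 3.06 ± 1.06 and 2.81 ± 0.57. The 3 lower genes were Map7 (-3.46 ± 0.49), Trak1 (-2.73 ± 0.33) and Map7d1 (-1.10 ± 0.30). Dynein and dynactin genes, of the motor that walks the other way, had 4 higher and 2 lower of 16 (median 0.40), both below the shares of all genes. The higher genes were Dynll2 (2.16), Dctn1 (0.88), Dynll1 (0.65) and Pafah1b1 (0.51), and the lower ones Ndel1 (-0.87) and Dync1i2 (-0.73).

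The comparison of SP11 with control asks whether the drug altered kinesin mRNA in the tumor cells. Of the 27 members tested in tumor cells 0 were called higher and 0 lower by edgeR, where 2.31% of 11588 genes were called in either direction. DESeq2 called 0 as well, and at an unadjusted p under 0.05 there was 1 member, Kif26a, a motor without ATPase activity. Its levels were 1.55 and 2.22 CPM without SP11 and 3.34 and 3.46 CPM with it, from 119 UMIs in all, a log2 fold change of 0.72 ± 0.32 (adjusted p 0.311 in edgeR). Of all genes 14.6% had an unadjusted p under 0.05, so 1 of 27 members is fewer than that share.

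The linked kinesins lay close to no difference. Their 11 log2 fold changes ran from -0.24 to 0.23 with a median of -0.04, against a median of 0.00 for all genes, and 2 of 11 were above 0. Kif23 had a log2 fold change of -0.04 with a 95% interval of -0.31 to 0.22, Kif20b one of -0.04 with -0.31 to 0.23, and Kif11 one of 0.02 with -0.27 to 0.30. Kif18a, at 16.7 CPM in Control 1, 20.4 CPM in Control 2, 17.1 CPM in SP11 1 and 17.2 CPM in SP11 2, had -0.24 with an interval of -0.56 to 0.09. Kif14, at 4.98 and 8.55 CPM against 8.46 and 8.82 CPM, had 0.23 with -0.24 to 0.70. The groups overlapped in Kif18a, and in Kif14 the SP11 1 value fell just below Control 2. Differences beyond these intervals are not supported by the fit, and smaller ones could not be seen with 2 samples a group.

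The unlinked members had a median log2 fold change of 0.19, and 12 of the 16 tested were above 0. Kif5b measured 151 CPM in Control 1, 149 CPM in Control 2, 146 CPM in SP11 1 and 156 CPM in SP11 2, a log2 fold change of -0.12 with an interval of -0.37 to 0.14, and Kif21a had 0.00 with -0.26 to 0.25. Kif13a, at 23.0 and 25.4 CPM against 28.3 and 35.2 CPM, had 0.26 with -0.03 to 0.55 (edgeR adjusted p 0.400). Kif1c, a motor of vesicles and mRNA, had 0.31 with -0.10 to 0.72 (-0.13 after thinning each cell to 5000 UMIs), and Kif3c, a kinesin-2 subunit, 0.52 with -0.15 to 1.19. None of these passed the test.

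By plain CPM the SP11 samples lay above both controls for 15 of the 27 members and below both for 0, but 36.8% of all tested genes lay above and 8.12% below, with a median log2 shift of 0.11 for all genes on that scale. After each sample was scaled by the median ratio over genes, 5 members lay above and 4 below, where 23.5% and 23.0% of all genes did. In the same tumor sums the 6 genes of the B cell list summed to 0.829, 1.37, 49.3 and 26.6 CPM, and the 4 hemoglobin genes to 267, 178, 10610 and 4735 CPM. The part of other cells' RNA in the kinesin values was not tested.

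**Figure D4:**
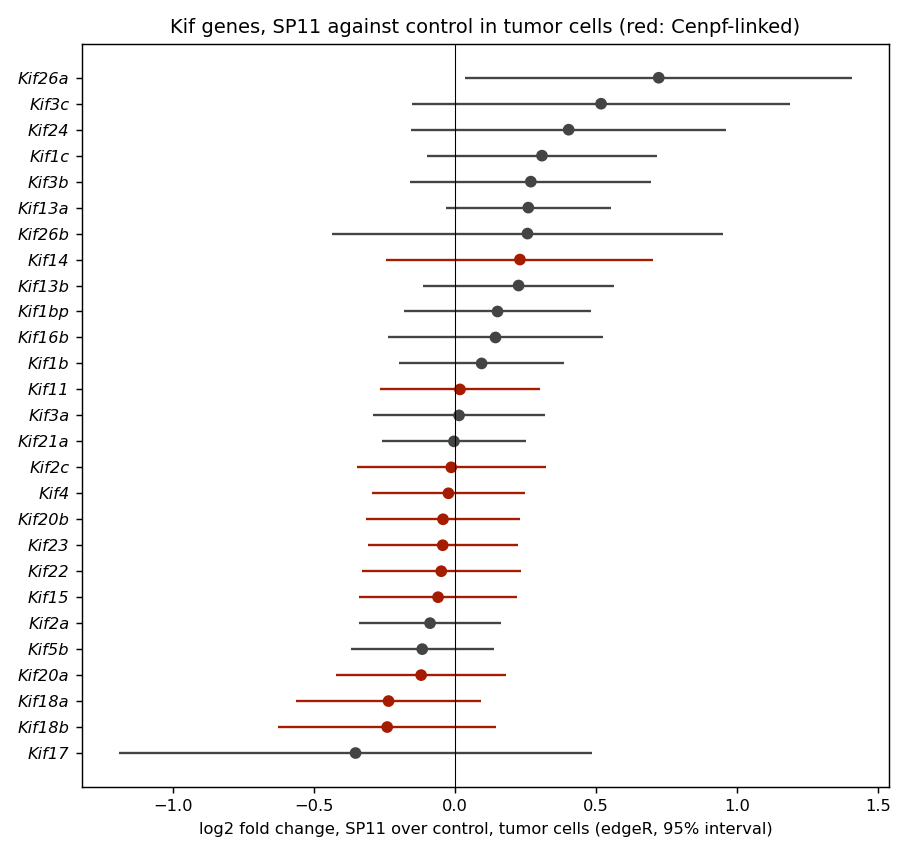
Log2 fold change of SP11 over control in tumor cells (x axis) for the 27 kinesin genes tested, with 95% intervals from edgeR, 2 samples a group. The 11 linked genes (red) lie between -0.24 and 0.23, and the interval of Kif26a alone does not cross 0.

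Among the partners, 1 gene was called in tumor cells after SP11, Dync1h1, the heavy chain of cytoplasmic dynein, which rose by 0.51 ± 0.12 on the log2 scale (adjusted p 0.032 in edgeR). It was 1 of 16 dynein and dynactin genes tested. None of the 27 spindle partners, 12 G2/M regulators, 14 S phase genes, 14 light chains and adaptors or 4 other motors passed. Of all 11588 genes 2.31% were called, so 1 call over these lists is no more than that share would give. The Dync1h1 call was not followed through the alternative settings. The medians of the lists without a call were -0.10, -0.05, -0.10, 0.15 and 0.17 in that order.

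The Cenpf-high tumor cells were compared alone, since a change in dividing cells could be diluted among the others. In 281 and 176 control cells and 418 and 194 cells after SP11, 0 of 26 tested members were called by edgeR or DESeq2, where 1.47% of 10152 genes were called by edgeR. At an unadjusted p under 0.05 there was 1, Kif14, with a log2 fold change of 0.51 (95% interval 0.03 to 0.99, adjusted p 0.360 in edgeR). Kif14 measured 8.36 and 12.6 CPM in these cells without SP11 and 15.3 and 17.3 CPM with it, and the groups did not overlap. Of all genes in these cells 12.6% had an unadjusted p under 0.05, and 34.2% had both SP11 samples above both controls by plain CPM, so neither is particular to Kif14. The other 10 linked genes had log2 fold changes between -0.20 (Kif20a) and 0.09 (Kif11).

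The share of cells with high Cenpf was compared after every tumor cell with at least 5000 UMIs was thinned to 5000. The share with 3 or more Cenpf UMIs was 16.6% and 12.1% in the controls and 14.7% and 16.3% after SP11, from 799, 511, 1151 and 575 cells. The means were 14.4% ± 3.19 and 15.5% ± 1.18 (SD, n = 2 each), and the groups overlapped. A two-sided exact permutation test gave p = 1, where 0.33 is the smallest p that 2 against 2 samples allow.

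In myeloid cells, the only immune class with at least 16 cells in each sample, the filter on low counts left 2 members, Kif5b and Kif1b. Neither was called by edgeR or DESeq2, with 0 also at an unadjusted p under 0.05, where 8.21% of 2594 genes were called by edgeR. The log2 fold changes were 0.92 (95% interval -0.15 to 1.98) for Kif5b and 0.12 (-1.37 to 1.60) for Kif1b. The other members had too few UMIs in myeloid cells for a test.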

How the data were processed

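Single-cell 3′ RNA-seq was analysed in 4 samples, 2 Control and 2 SP11. The authors deposited UMI counts per gene and cell, made with Cell Ranger 7.1.0 per the file headers and without normalization. The submitters' processing notes name mm10, the study's text names hg38, and the gene identifiers are of mouse. Repeat molecules were merged by UMI, and genes that share reads with near-identical copies may be undercounted. Doublets were not removed. The cell numbers in the study's text differ from the barcodes in the files.

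For each sample the UMIs of a class of cells were added up, and the totals went into edgeR 4.0.16 under R 4.3.3 (TMM, filterByExpr, quasi-likelihood, Benjamini-Hochberg over all genes, threshold 0.05), with DESeq2 1.42.0 as an alternative, and the fits were checked on simulated counts. Correlations, the ordering by Cenpf and thinning were computed in Python 3.11.15 with numpy 2.4.6. Members, marker and partner lists were chosen with earlier results of these data known. Named were members called in any fit, the 8 with the highest mean r, the 8 unlinked with the most UMIs, the 5 with the largest difference between cell types in each direction, the 10 nearest genes and called partners. Kif21b, Kif26a, Kif14 in the Cenpf-high cells, and other members outside this rule were named after their values were seen. Alternatives are given in the closing section. Promoters are RefSeq sequences of GRCm38.p6, the build that mm10 names.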

Additional observations from a re-analysis of the deposited data

How the results depend on the processing

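No kinesin gene was called after SP11 in tumor, Cenpf-high or myeloid cells under any alternative tried, DESeq2, no filter and each omitted sample included. In myeloid cells this says little, since 2 members were tested, and 0 were testable without either SP11 sample, which makes those settings void. The 15 genes higher in tumor than immune cells were 10 to 16 when 1 sample was omitted, and 10 with DESeq2. The count lower in tumor cells was 0 and became 4 without a filter, 5 in the SP11 samples alone, 3 with up to 20% mitochondrial UMIs, 3 without tumor cells with immune UMIs, 1 against myeloid cells, and 0 to 4 when 1 sample was omitted, the 4 without Control replicate 2. The comparisons in the SP11 samples alone and against myeloid cells were chosen after seeing the data, and the cause of these moves was not tested beyond the genes and samples that each setting adds or removes. With only the sample that holds their immune molecules omitted, Kif4, Kif2c, Kif18b and Kif14 had fitted log2 fold changes of 10.5, 9.39, 8.63 and 8.66. These values depend on the prior count.

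The Cenpf-linked genes were 6 after thinning to 5000 UMIs, and 10 to 12 in all other settings. The difference in the share of Cenpf-high cells, 1.13 percentage points, ran from -1.13 (without Control replicate 2) to 3.38 when 1 sample was omitted. Of the log2 fold changes after SP11, that of Kif1c turned from 0.31 to -0.13 after thinning. Of those near 0, Kif11 was at -0.092 without tumor cells with immune UMIs, Kif20b and Kif23 were at 0.10 and 0.11 after thinning, and with 1 sample omitted Kif11 ran from -0.078 to 0.12, Kif14 from -0.092 to 0.65, Kif20b from -0.13 to 0.046 and Kif23 from -0.12 to 0.033.

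Samples of the 2 groups share replicate numbers, and the deviations of samples with the same number had a correlation of 0.127 over 11588 genes. The study's text speaks of 2 independent sets of controls and treated samples, but no label ties the replicate numbers to these sets. With only 2 possible pairs, the numbers were not taken as pairs in the main fits. With the replicate block 0 kinesin genes were called in tumor, Cenpf-high or myeloid cells. Over all 11588 genes in tumor cells the block raised the calls from 210 higher and 58 lower to 654 and 384. What the block takes up was not tested.

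With 2 samples a group, half-widths of the 95% intervals after SP11 in tumor cells were 0.25 to 0.84 on the log2 scale, and smaller changes could not be seen. Immune sums of the controls hold few molecules.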

Other observations

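Barcodes outside the cell classes also held kinesin UMIs. In the barcodes that failed the filters on genes or mitochondrial share, the 11 linked genes summed to 567 and 575 CPM in the controls, from 50 and 41 UMIs, and to 49.1 and 16.5 CPM after SP11, from 20 and 10 UMIs. The unlinked members summed to 726 and 758 CPM against 41.8 and 44.5 CPM in the same barcodes. The failed barcodes were unlike in number: 916 of 977 and 566 of 595 barcodes were kept in the controls. After SP11 1831 of 2277 and 1091 of 1483 were kept. What the failed barcodes hold was not tested, so these sums do not show a change of kinesin mRNA with SP11. In kept cells that met no cell class, the linked genes stood at 158, 161, 239 and 110 CPM, from 6, 9, 52 and 18 UMIs.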
